A study of Homo sapiens with 12 samples.

Results

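In HAP1 cells, 5046 regions at CTCF had an SMC1 peak listed in ΔWAPL cells and in no other genotype, ΔWAPL/ΔSCC4 included. They were found by merging the SMC1 peak lists of 4 genotypes wherever intervals shared at least 1 bp, and by keeping the regions that held a ΔWAPL peak alone and overlapped a CTCF peak of any genotype by at least 1 bp. The 5046 regions, called ΔWAPL-only regions at CTCF here, were 13.3% of the 38018 merged SMC1 regions and 15.9% of the 31691 SMC1 regions at CTCF. A peak in ΔWAPL cells alone was found for 24.3% of all SMC1 regions, without regard to CTCF, and 83.4% of all SMC1 regions overlapped CTCF. These numbers follow from the rule and are a description. The SMC1 lists were unequal in length, with 33952 peaks for ΔWAPL, 18542 for wild-type, 12779 for ΔSCC4 and 26558 for ΔWAPL/ΔSCC4. These lengths are not those the study states for its SMC1 peaks, and the reason is not given in the sources used here. With each list cut to its strongest peaks at the length of the shortest, the same rule gave 1507 regions. A region whose peak in another genotype was cut can enter that set, so it is not a subset of the 5046.

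The study mapped SMC1, a core subunit of cohesin, and CTCF by chromatin immunoprecipitation and sequencing (ChIP-seq) in HAP1, a near-haploid human cell line, with IgG as the control antibody. The genotypes were wild-type, ΔWAPL (a blasticidin cassette inserted into WAPL by CRISPR, clone WaplKO_3.3), ΔSCC4 (a puromycin cassette in SCC4) and ΔWAPL/ΔSCC4, made by knocking out SCC4 in ΔWAPL cells. Each combination of antibody and genotype had 1 library, so the 12 libraries held no replicates, and each deletion cannot be told apart from its clone or its library. No test between genotypes was possible, and every interval below is a 95% interval that covers the counting of regions alone.

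Cohesin is a ring that entraps DNA. The SCC2/SCC4 complex loads it, WAPL opens the ring and releases it, and CTCF, a zinc-finger protein bound to a directional motif, halts it at specific sites. Loops are mostly anchored where a pair of CTCF motifs point towards each other. The comparison asks which CTCF sites had a detectable SMC1 peak when WAPL was absent and SCC4 present, and in no other combination of the pair.

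The reference classes were as follows, and none shares a region with the ΔWAPL-only regions. Constant regions had SMC1 peaks in all 4 genotypes at CTCF and numbered 10630. Regions with SMC1 peaks in ΔWAPL and ΔWAPL/ΔSCC4 and nowhere else, at CTCF, numbered 5471 and are called shared WAPL-loss regions. Of the 53945 regions formed by merging the CTCF lists, 22146 overlapped no SMC1 peak of any genotype and are called SMC1-free CTCF regions.

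The sequences below are picked examples of members with a CTCF motif match and do not represent all members. A motif of 19 bp was learned from the strongest wild-type CTCF peaks, and its consensus, on the strand with more G than C, was nnGCCACCAGGGGGCGCnn, where n stands for any base. Each sequence below is from hg19, runs 5′ to 3′ on the motif strand and carries the best motif match in capitals, with 20 bases on either side, or 5 bases where the annotation gave a UTR. Positions are counted as in the BED format. The last position printed for a sequence is included in it, unlike the end of a peak or gene interval. The first 5 are the members with the largest ΔWAPL SMC1 −log10 q in a class defined by CTCF or by position, the next 2 are among the 5 strongest of all, and the last has the lowest −log10 q.
TXLNG intron, CTCF in all 4 genotypes, chrX:16854764-16854822 (+): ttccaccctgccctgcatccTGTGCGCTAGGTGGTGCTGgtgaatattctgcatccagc
TAFA4 intron, CTCF in ΔWAPL alone, chr3:68933621-68933679 (+): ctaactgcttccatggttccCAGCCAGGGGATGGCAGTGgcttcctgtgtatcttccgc
MGAT1 UTR, CTCF in ΔWAPL and ΔWAPL/ΔSCC4, chr5:180217151-180217179 (+): tgcctGGGCCAGCAGAGGGCACCGggcac
MRPL41 promoter, chr9:140445996-140446054 (-): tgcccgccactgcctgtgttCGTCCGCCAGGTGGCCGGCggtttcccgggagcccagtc
distal region beyond IRX1, chr5:4295976-4296034 (-): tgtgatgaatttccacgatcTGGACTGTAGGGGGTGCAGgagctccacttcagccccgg
end of chromosome 16, chr16:61001-61059 (-): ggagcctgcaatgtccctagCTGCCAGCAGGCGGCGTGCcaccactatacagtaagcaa
FRS3 intron, chr6:41743790-41743848 (-): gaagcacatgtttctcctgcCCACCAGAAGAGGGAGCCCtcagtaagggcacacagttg
SDK2 intron, chr17:71475304-71475362 (+): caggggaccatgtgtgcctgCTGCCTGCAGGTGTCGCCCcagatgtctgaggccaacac

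Of the 15 consensus positions with a named base, the TAFA4 match carried 8, the TXLNG match 9, the MGAT1 match 12 and the chromosome 16 match 12. The TAFA4 site, with CTCF listed in ΔWAPL alone, thus carried the fewest consensus bases of those printed. It did not have the lowest log-odds score of the motif. Its score was 12.3, above that of the MRPL41 match (11.6) and also above those of the chromosome 16 and IRX1 matches. The TXLNG, MGAT1, FRS3 and SDK2 matches scored higher than TAFA4. A link between motif strength and CTCF genotype cannot be read from these single picked sites.

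The strongest member by −log10 q lay in an intron of TXLNG, a gene of the taxilin family, at chrX:16854502-16854931. Its ΔWAPL SMC1 peak had a fold enrichment of 11.6 (summit pileup over local background, 1 read added to each), 60 reads at the summit and a −log10 q of 43.3. CTCF fold enrichment there was 15.3 for the wild-type, 16.4 for the ΔWAPL, 10.6 for the ΔSCC4 and 12.5 for the ΔWAPL/ΔSCC4 library. CTCF was therefore listed in every genotype, at a similar level in wild-type and ΔWAPL, and SMC1 in 1 of the 4.

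The second strongest, at chr16:60882-61231, had an SMC1 fold enrichment of 16.2 with 41 reads at the summit. Its CTCF fold enrichment was 29.5 for the wild-type, 29.5 for the ΔWAPL, 29.2 for the ΔSCC4 and 28.0 for the ΔWAPL/ΔSCC4 library, above the median of constant regions in each genotype. It lay 492 bp from a start of DDX11L16, a pseudogene of a family with near-identical copies at chromosome ends, so the placement of reads among copies is uncertain. The third overlapped a non-coding exon of ERVK13-1 at chr16:2720077-2720418, with an SMC1 fold enrichment of 11.6. The fourth, in an intron of the adaptor gene FRS3 at chr6:41743669-41744000, had 65 reads at the summit over a high local background and a fold enrichment of 8.05. The fifth, at chr15:41206627-41207022, had an SMC1 fold enrichment of 10.2 and lay 14711 bp from a start of DLL4, which encodes a Notch ligand. CTCF was listed in all 4 genotypes at each of the 5.

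At other members CTCF itself was listed in fewer genotypes. In an intron of TAFA4, at chr3:68933369-68933787, the SMC1 fold enrichment in ΔWAPL was 10.5, and CTCF was listed in ΔWAPL alone at 13.7. At chr5:180216961-180217336, in a UTR of the glycosyltransferase gene MGAT1, SMC1 reached 9.02, and CTCF was listed in ΔWAPL at 9.63 and in ΔWAPL/ΔSCC4 at 6.37. Both of these members had a CTCF motif match and lay within 10 kb of a wild-type SMC1 summit, at 5917 bp and 5360 bp.

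The region with the strongest SMC1 peak and no ΔWAPL CTCF peak lay 231 bp from a start of LSM4, which encodes an RNA-binding protein of the LSm complexes, at chr19:18434016-18434309. SMC1 fold enrichment was 8.94, CTCF was listed in wild-type alone at 4.16, and no motif match was found within 100 bp of the CTCF summit. At the strongest member near a protein-coding start, 340 bp from MRPL41, a gene for a mitochondrial ribosomal protein, at chr9:140445798-140446132, SMC1 fold enrichment was 10.2. CTCF there was 13.8 for the wild-type, 16.8 for the ΔWAPL, 11.8 for the ΔSCC4 and 15 for the ΔWAPL/ΔSCC4 library. These start-site members thus differed in CTCF, from 1 weak peak to a strong peak in every genotype.

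Far from any annotated start, the strongest member was at chr5:4295788-4296178, with the nearest start 144416 bp away. The nearest protein-coding start, that of IRX1, a homeobox gene, was 700010 bp away, and the nearest wild-type SMC1 summit 572498 bp away. This member's SMC1 fold enrichment was 12.6, and CTCF was 11.7 for wild-type, 18.3 for ΔWAPL and 11.7 for ΔWAPL/ΔSCC4, with no peak listed in ΔSCC4 cells. The strongest member without a motif match, at chr2:225224292-225224716, had an SMC1 fold enrichment of 9.53 and CTCF at 6.93 for wild-type, 9.75 for ΔWAPL and 8.27 for ΔWAPL/ΔSCC4. The members of lowest −log10 q were in an intron of SDK2 at chr17:71475248-71475455 (fold enrichment 3.07, −log10 q 1.42) and at chr6:137963059-137963277 (2.76 and 1.84). The latter lay 332 bp from a wild-type SMC1 summit.

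SMC1 peaks at the ΔWAPL-only regions were weak within the ΔWAPL list, as a description of values the rule used. Their median fold enrichment was 5.03 (quartiles 4.37 and 5.88, n = 5046), beside 5.90 at shared WAPL-loss regions and 9.36 at constant regions. The rule applied to lists of equal length, which chooses another set of regions, gave a median of 8.26. In the full lists, the members' median −log10 q was 6.71, their median rank stood at the percentile 27.6 of the ΔWAPL list, and their median width was 274 bp, beside 433 bp at constant regions. The summits held a median of 17 reads (quartiles 14 and 22).

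A peak missing from a list can be a weaker peak below the caller's threshold, so the pileups were set against what the wild-type library could list. The smallest wild-type SMC1 peak at the lowest background had 9 reads, or 5.71 times the average pileup of that library. The median ΔWAPL pileup of members, scaled to the average of its own library, was 1.87 times that limit (quartiles 1.54 and 2.42). It was at least 2 times the limit at 1944 members, or 38.5%. At constant regions the scaled ΔWAPL pileup was itself 1.67 times the wild-type one (median, n = 10630), and 2985 members, or 59.2%, exceeded the limit by more than that factor. This limit holds at the lowest background, while the local ΔWAPL background was above its own lowest value at 4531 members, or 89.8%, with a median of 1.5 times it. The limit that applied at most members is therefore higher than 5.71, and absence from the wild-type list does not show absence of SMC1 at any of them. For the ΔWAPL/ΔSCC4 library, the limit at the lowest background was 5.84 times its average pileup. Absence from the ΔWAPL/ΔSCC4 or the ΔSCC4 list likewise does not show absence of SMC1. The average depth, read from the lowest backgrounds, was 8.13 reads per kb for wild-type SMC1, 7.66 for ΔWAPL, 8.41 for ΔSCC4 and 6.79 for ΔWAPL/ΔSCC4. Only 4 members overlapped an IgG peak of any genotype, or 0.0793%, beside 2.69% of constant regions.

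Most members carried CTCF without WAPL loss. A wild-type CTCF peak overlapped 3942 of the 5046 members, or 78.1% (77.0 to 79.2), beside 93.4% of all SMC1 regions at CTCF. The share was 91.2% for ΔWAPL, 64.0% for ΔSCC4 and 89.1% for ΔWAPL/ΔSCC4. CTCF was listed in all 4 genotypes at 3039 members, or 60.2% (58.9 to 61.6), beside 86.3% of all SMC1 regions at CTCF, 81.2% of shared WAPL-loss regions, 99.1% of constant regions and 32.5% of SMC1-free CTCF regions. The difference from constant regions was -38.9 percentage points (-40.2 to -37.5) and that from shared WAPL-loss regions -20.9 (-22.6 to -19.2).

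**Figure D1:**
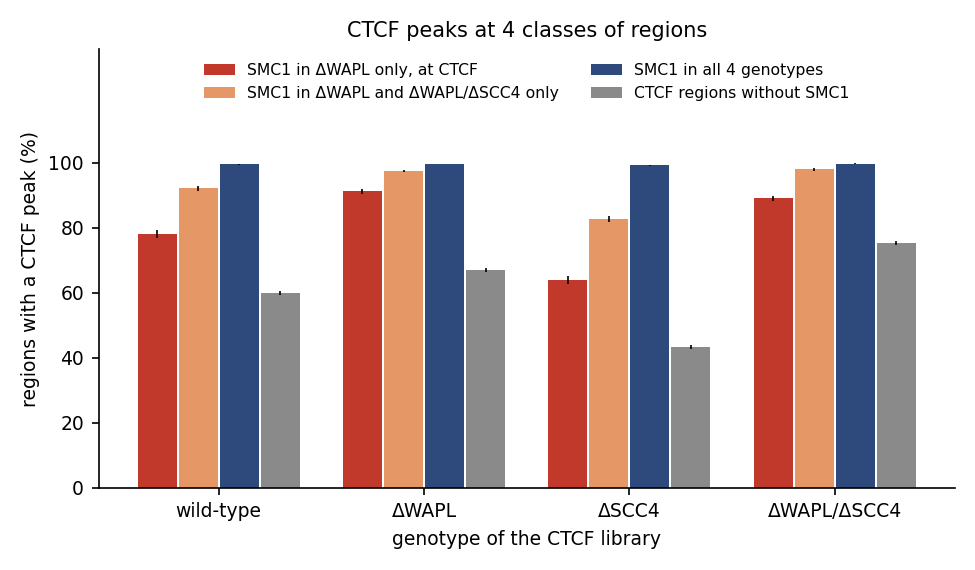
Share of regions with a CTCF peak (%, bars from 0, Wilson 95% intervals) in each CTCF library, for ΔWAPL-only regions at CTCF (n = 5046), shared WAPL-loss regions (n = 5471), constant regions (n = 10630) and SMC1-free CTCF regions (n = 22146). The ΔWAPL-only regions had 78.1% in wild-type and 91.2% in ΔWAPL cells, below constant regions and above SMC1-free regions in every library.

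CTCF peaks listed in ΔWAPL and not in wild-type cells were found at 860 members, or 17.0% (16 to 18.1). The share over all SMC1 regions at CTCF was 4.95%, that at constant regions 0.245%, that at shared WAPL-loss regions 6.67% and that at SMC1-free CTCF regions 21.2%. The reverse, a CTCF peak in wild-type and not in ΔWAPL cells, was found at 198 members, or 3.92%, beside 1.45% of all SMC1 regions at CTCF, 1.3% of shared WAPL-loss regions, 0.207% of constant regions and 14.1% of SMC1-free CTCF regions. Gains against losses were 860 to 198 at members, 365 to 71 at shared WAPL-loss regions, 26 to 22 at constant regions and 4704 to 3120 at SMC1-free CTCF regions. CTCF libraries differed in average depth, with 6.53 reads per kb in wild-type and 8.41 in ΔWAPL cells, and the part of depth in these counts was not tested. By combination, 607 members had CTCF in every genotype but ΔSCC4, or 12%, beside 5.03% of all SMC1 regions at CTCF and 9.32% of shared WAPL-loss regions. CTCF in ΔWAPL and ΔWAPL/ΔSCC4 alone was found at 454 members (9.0%, beside 2.85% and 4.83%), and CTCF in ΔWAPL alone at 331 (6.56%, beside 1.43% and 0.932%). CTCF in ΔWAPL/ΔSCC4 alone was found at 208 members (4.12%, beside 1.4% and 0.950%), and in wild-type alone at 81 (1.61%, beside 0.486% and 0.457%). Each of these combinations was thus more frequent at members than over all SMC1 regions at CTCF, where CTCF in all 4 genotypes was more frequent.

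CTCF peaks of members were weaker than those of constant and shared WAPL-loss regions and stronger than those of SMC1-free regions. Where a wild-type CTCF peak was listed, its median fold enrichment was 9.41 (9.23 to 9.61, n = 3942), beside 18.8 at constant regions, 12.3 at shared WAPL-loss regions and 6.78 at SMC1-free CTCF regions. With −log10 q of at least 10 in every list, the rule chose another set of regions, whose wild-type CTCF median was 14.4. In the full lists, the members' median was 9.41 for ΔWAPL, 8.75 for ΔSCC4 and 9.04 for ΔWAPL/ΔSCC4. The order of the 4 classes was the same in every CTCF library, and the intervals of their medians did not overlap.

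**Figure D2:**
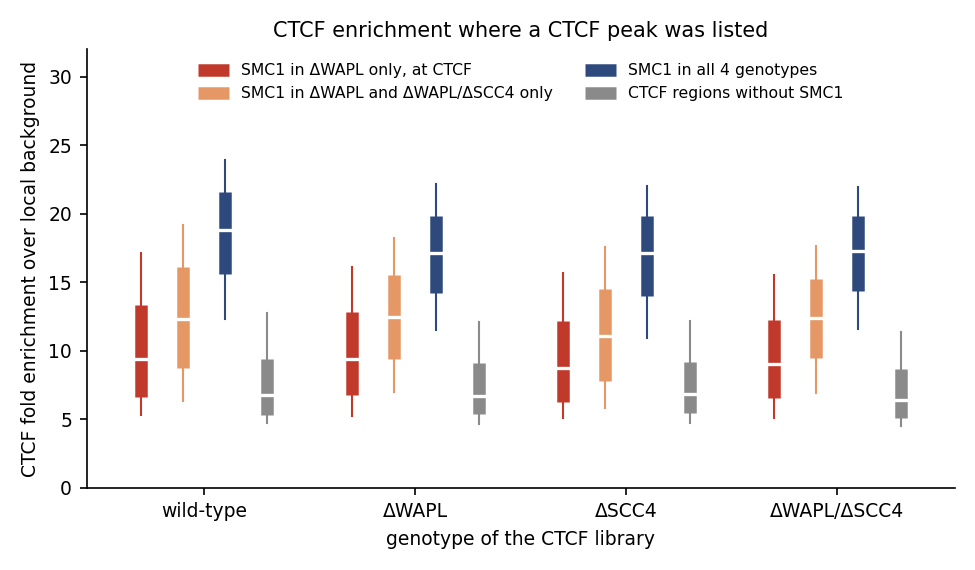
CTCF fold enrichment over the local background where a CTCF peak was listed, by genotype and class of region (white line, median; thick bar, quartiles; thin line, first to ninth decile). In wild-type cells the medians were 9.41 for ΔWAPL-only regions, 12.3 for shared WAPL-loss regions, 18.8 for constant regions and 6.78 for SMC1-free regions.

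Read from the side of CTCF, wild-type CTCF regions were sorted into bands by their fold enrichment. Members took 10.1% of the 2935 regions below 5, 13.1% (12.5 to 13.7) of the 14072 from 5 to 10, 11.1% (10.5 to 11.8) of the 10051 from 10 to 15, 5.76% of the 9745 from 15 to 20 and 2.42% (2.07 to 2.84) of the 6146 at 20 and over. Constant regions took 3.27%, 3.23%, 17.9%, 42.7% and 67.2% of the same bands, and SMC1-free regions 74.0%, 58.8%, 21.8%, 5.68% and 1.61%. The share of members was thus highest from 5 to 10 and fell towards the strongest sites, that of constant regions was largest at 20 and over, and shared WAPL-loss regions peaked between them, with 17.4% from 10 to 15.

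**Figure D3:**
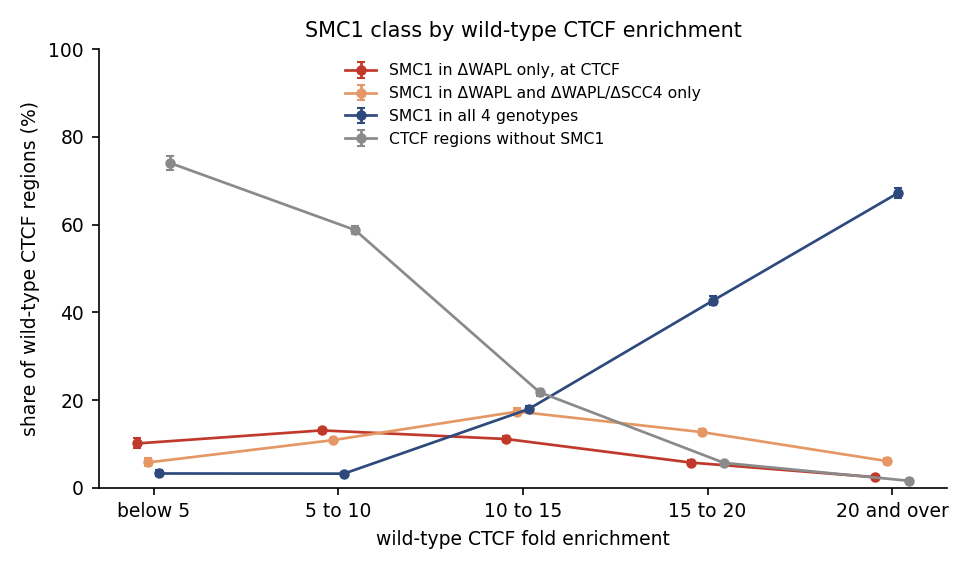
Share of wild-type CTCF regions (%, Wilson 95% intervals) that overlapped each class of SMC1 region, by wild-type CTCF fold enrichment. ΔWAPL-only regions were highest at 13.1% from 5 to 10, shared WAPL-loss regions at 17.4% from 10 to 15, and constant regions at 67.2% at 20 and over.

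At members with a CTCF peak in both lists, CTCF enrichment differed little between wild-type and ΔWAPL cells. Members with a peak in 1 of these lists have no ratio. The ratio of ΔWAPL to wild-type fold enrichment had a median of 1.02 (1.01 to 1.03, quartiles 0.880 and 1.23) over the 3744 members with both peaks. It was 0.920 at constant regions, 1.01 at shared WAPL-loss regions and 0.992 at SMC1-free CTCF regions. The ratio was also compared within bands of CTCF strength. Bands of wild-type fold enrichment share that value with the ratio, so a class with a stronger mean can gain in a low band by the banding itself. From 5 to 10 of wild-type fold enrichment the median was 1.11 (1.09 to 1.13) at members, 1.21 (1.18 to 1.23) at shared WAPL-loss regions, 1.05 (1.02 to 1.08) at constant regions and 1.01 (0.998 to 1.01) at SMC1-free regions. From 10 to 15 it was 0.970 (0.950 to 0.984), 1.01 (0.997 to 1.02), 0.977 (0.967 to 0.984) and 0.905 (0.894 to 0.916).

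With bands set instead by the ΔSCC4 CTCF list, which enters neither term of the ratio, a choice made after seeing the data, the differences were smaller. From 5 to 10 of ΔSCC4 fold enrichment the median ratio was 1.04 (1.03 to 1.06, n = 1534) at members, 1.09 (1.07 to 1.11) at shared WAPL-loss regions, 0.981 (0.967 to 1.00) at constant regions and 0.989 (0.980 to 0.997) at SMC1-free regions. From 10 to 15 it was 0.957 (0.940 to 0.974) at members and 0.960 (0.949 to 0.977) at SMC1-free regions, whose intervals overlapped, and 0.931 (0.924 to 0.937) at constant regions. The higher ratio of members over SMC1-free regions from 10 to 15 was thus seen with wild-type bands alone. From 5 to 10 it was seen with both, and shared WAPL-loss regions were higher than members there.

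**Figure D4:**
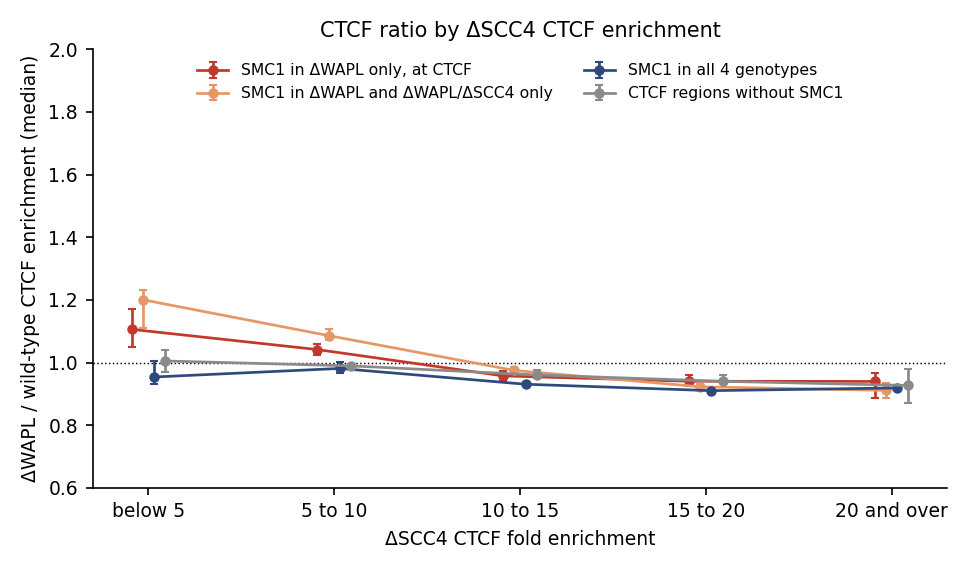
Median ratio of ΔWAPL to wild-type CTCF fold enrichment (order-statistic 95% intervals) by ΔSCC4 CTCF fold enrichment and class of region; the dotted line marks equal enrichment. From 5 to 10 the ratio was 1.04 at ΔWAPL-only regions, 1.09 at shared WAPL-loss regions and 0.989 at SMC1-free regions, and from 10 to 15 the intervals of ΔWAPL-only and SMC1-free regions overlapped.

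Deletion of SCC4 went with lower CTCF values at members in both backgrounds. The median ratio of ΔSCC4 to wild-type CTCF fold enrichment was 0.860 (0.854 to 0.868, n = 3118), and that of ΔWAPL/ΔSCC4 to ΔWAPL was 0.956 (0.949 to 0.962, n = 4166). The same ratios were 0.866 and 0.988 at shared WAPL-loss regions, 0.912 and 1.00 at constant regions, and 0.894 and 0.986 at SMC1-free CTCF regions. The ratio of ΔSCC4 to wild-type was thus below 1 in every class. The number of members with a CTCF peak was 3942 for wild-type, 3229 for ΔSCC4, 4604 for ΔWAPL and 4498 for ΔWAPL/ΔSCC4. In the same order, the full CTCF lists held 43050, 37625, 45798 and 47608 peaks, and the part of list length in these counts was not tested. The comparisons against wild-type use the same wild-type library.

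The CTCF motif was found at most members and was weaker than at constant regions. On even-numbered chromosomes, which took no part in learning the motif, 1848 of 2301 members held a match within 100 bp of the strongest CTCF summit, or 80.3% (78.6 to 81.9). The cutoff was the score that 5% of windows 1000 bp away reached, on either strand. The share was 87% over all SMC1 regions at CTCF, 92.4% at constant regions, 85.4% at shared WAPL-loss regions and 58.4% at SMC1-free CTCF regions. The difference from constant regions was -12.1 percentage points (-13.9 to -10.4) and that from shared WAPL-loss regions -5.11 (-7.24 to -2.99). Over all chromosomes 4002 members had a match, with a median log-odds score of 13.3 (13.1 to 13.4), beside 16.5 at constant regions, 13.8 at shared WAPL-loss regions and 11.8 at SMC1-free regions.

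SMC1 summits of members centred on the motif but were more spread around it. The ΔWAPL SMC1 summit lay a median of 32 bp from the motif centre (31 to 34, n = 4002), beside 21 bp at constant regions and 29 bp at shared WAPL-loss regions. Within 50 bp were 67.6% (66.2 to 69.1) of the members with a match and 85.9% of the constant regions, a difference of -18.2 percentage points (-19.8 to -16.6). With fewer reads under a summit its position is less certain, and the part of depth in this difference was not tested. Along the motif strand, 52.0% (50.5 to 53.6) of member summits lay downstream of the motif centre, beside 53.5% at constant regions, and the difference of -1.49 points had an interval from -3.32 to 0.347.

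**Figure D5:**
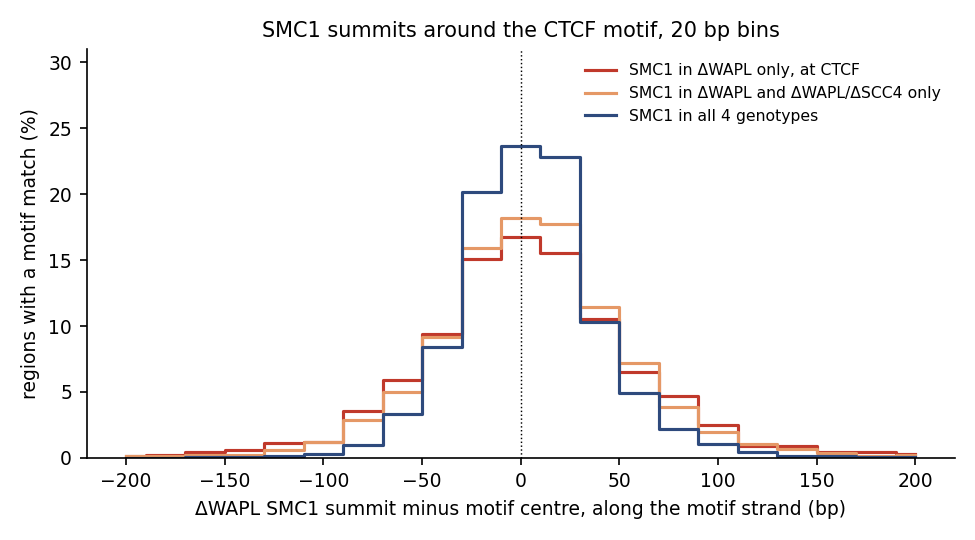
Position of the ΔWAPL SMC1 summit relative to the centre of the CTCF motif (bp, along the motif strand, bins of 20 bp) as a share of regions with a motif match, for ΔWAPL-only regions (n = 4002), shared WAPL-loss regions (n = 4699) and constant regions (n = 9874). The central bin held 16.8% of ΔWAPL-only regions and 23.7% of constant regions.

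Motif orientation was then compared with that of the nearest constant region. The motif pointed the same way at 48.5% (46.9 to 50.0) of the 4002 members, towards the constant region's motif, in convergent orientation, at 20.3% (19.1 to 21.6) and away from it at 31.2%. For a constant region and its own nearest constant neighbour these shares were 44.7%, 24.2% and 31.1%, where mutual neighbours count once from each side. Convergent pairs were thus less frequent at members by 3.89 percentage points (the difference, members minus constant regions, was -3.89, with an interval from -5.37 to -2.36), while shared WAPL-loss regions, at 20.0%, did not differ from members beyond the interval (-1.40 to 1.99). Whether the pairs are joined by loops cannot be seen in peak lists.

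Members lay at start sites more often than the other classes at CTCF. The ΔWAPL SMC1 summit was within 1 kb of an annotated transcript start at 1524 members, or 30.2% (29.0 to 31.5), beside 22.7% of constant regions and 21.8% of shared WAPL-loss regions. The differences were 7.46 percentage points (5.97 to 8.96) and 8.41 (6.74 to 10.1). Of the 4192 regions with SMC1 in ΔWAPL alone that overlapped no CTCF peak, 84.9% had the summit this close to a start. By annotation at the summit, 50.1% of members were in introns, 30.3% in intergenic sequence, 7.89% in UTRs, 6.0% in exons of non-coding genes and 5.73% in coding exons.

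The 1524 members near start sites differed from the other 3522 in sequence and in CTCF. The median GC content within 100 bp of their summits was 64.7%, with 14 CpG dinucleotides, against 50.7% and 3 CpG dinucleotides at the others. A motif match was found on even-numbered chromosomes at 73.9% near starts and 82.7% elsewhere, a difference of -8.80 percentage points (-12.8 to -5.03). A ΔWAPL CTCF peak was listed at 83.5% near starts and 94.6% elsewhere (difference -11.1, from -13.2 to -9.19). The wild-type CTCF peak, in contrast, was listed at 77.0% and 78.6%, and the interval of that difference ran from -4.20 to 0.818. Median SMC1 fold enrichment in ΔWAPL was 4.88 near starts and 5.11 elsewhere.

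The 1104 members without a wild-type CTCF peak were also set apart from the other 3942. Where ΔWAPL CTCF was listed, its median fold enrichment was 5.94 (5.86 to 6.20, n = 860) at members without and 10.4 (10.3 to 10.6, n = 3744) at members with a wild-type CTCF peak. A motif match was found at 72.7% and 82.6% of them on even-numbered chromosomes (difference -9.91 percentage points, from -14.2 to -5.83). A wild-type SMC1 summit lay within 10 kb of 36.0% of the former and 23% of the latter, a difference of 12.9 points (9.84 to 16.1). The share over 100 kb from a wild-type SMC1 summit was 19.2% and 18.2%, and the interval of that difference ran from -1.52 to 3.71. The members without wild-type CTCF thus had weaker CTCF in ΔWAPL cells, fewer motif matches and more often a wild-type SMC1 summit within 10 kb. The split is by a CTCF peak call, which itself favours weaker CTCF in the members without one.

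Over all members, the nearest wild-type SMC1 summit lay at a median of 27.7 kb (26.1 to 29.0, quartiles 9.63 and 74.0 kb). It was within 1 kb of 115 members, or 2.28%, within 10 kb of 25.9%, and over 100 kb from 929, or 18.4%. With −log10 q of at least 10 in every list the median was 71.3 kb. That cut also shortens the wild-type SMC1 list and chooses another set of regions. In the full lists, the median was 36.2 kb at shared WAPL-loss regions and 26.2 kb at regions of ΔWAPL-only SMC1 without CTCF.

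The summits of 2859 members fell in the bodies of protein-coding genes, and 2634 such genes held at least 1. The genes with the most were long, and counts are not corrected for length. These genes were chosen by their member counts, which favours more SMC1 peaks in ΔWAPL than in wild-type cells and a high density of members. Over the genome, the lists held 33952 SMC1 peaks for ΔWAPL and 18542 for wild-type cells. CTNNA2, an α-catenin of neurons, held 7 members with SMC1 fold enrichments from 5.01 to 8.17 in its 1464 kb at chr2:79412357-80875986. CTCF was listed in all 4 genotypes at 6 of these 7, and each of the 7 had a motif match. The gene body held 15 SMC1 peaks in ΔWAPL and 3 in wild-type cells, of which 2 regions were constant. CSMD1, which encodes a large transmembrane protein with CUB and Sushi domains, held 6 members (3.54 to 6.56), with 13 SMC1 peaks in ΔWAPL and 2 in wild-type cells.

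KCNIP4, a gene for a potassium channel-interacting protein, RBFOX1, a splicing regulator, and RPTOR, a subunit of the mTORC1 kinase complex, held 5 members each. CTCF was listed in all 4 genotypes at 5 members of KCNIP4, 3 of RPTOR and 1 of RBFOX1. RPTOR, the shortest of these genes at 422 kb, had 11.9 members per Mb, CTNNA2 4.78 and RBFOX1 2.02, beside 1.66 per Mb over chromosomes 1 to 22 and X.

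Over all 20176 protein-coding genes, 13.1% held a member summit in their body, without regard to gene length. None of 16 genes for cohesin, its regulators and CTCF held one, while 3 held a constant region and 4, STAG2, PDS5B, NIPBL and HDAC8, a shared WAPL-loss region. NCAM2, a neural cell adhesion gene, held 1 member at chr21:22376066-22376353 in an intron, with SMC1 at 5.52 in ΔWAPL. Its CTCF fold enrichment was 9.73 for the wild-type, 5.64 for the ΔWAPL, 5.35 for the ΔSCC4 and 7.01 for the ΔWAPL/ΔSCC4 library, highest in wild-type. Of 39 HOX genes, which encode patterning factors in 4 clusters, HOXB7 and HOXB8 overlapped 1 and the same member at chr17:46689929-46690590. SMC1 there was 5.74, and CTCF was 4.56 for the wild-type, 8.16 for the ΔWAPL, 6.18 for the ΔSCC4 and 6.92 for the ΔWAPL/ΔSCC4 library, with no motif match.

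The clustered protocadherins are adhesion genes whose alternative first exons carry CTCF sites. Of 53 such genes, 11 overlapped a member, all through 3 members in the PCDHA cluster, whose gene bodies overlap. The member at chr5:140181025-140181391 had SMC1 at 8.11 in ΔWAPL and CTCF at 12.7 in wild-type and 13.3 in ΔWAPL cells. That at chr5:140201474-140201939 had SMC1 at 6.43 and CTCF at 24.2 and 21.5. That at chr5:140254707-140255010 had SMC1 at 5.77 and CTCF at 4.32 and 11.5, with none listed in ΔSCC4 cells. These members lay 68, 23 and 24 bp from an annotated start. The first exons of this family are alike in sequence, so the division of reads among them is uncertain.

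At the edge of the rule, the smallest overlap of a member with a CTCF peak was 2 bp, at an SMC1 fold enrichment of 4.22, and 39 members overlapped by fewer than 50 bp, with a median fold enrichment of 4.18. Just outside were 48 ΔWAPL-only SMC1 regions with a gap of under 50 bp to the nearest CTCF peak and a median fold enrichment of 4.08. The median overlap of members was 243 bp, and the median gap of the regions left out was 7.83 kb.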

How the data were processed

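The deposited lists held 1 ChIP-seq library each (12 lists, 4 each for SMC1, CTCF and IgG). The authors mapped reads to hg19 with Bowtie2 and called peaks with MACS2 2.1.1, with IgG named as control; which control each call was given is not stated. Per the labels and this format, the deposited columns were fold enrichment (a ratio of summit pileup to local background), −log10 p-value and q-value, and an integer score, which was not used. Summit pileup and background were recovered from fold enrichment and p; more than 99.9% of peaks had 1 solution, and backgrounds equalled whole reads in 10 kb within 0.1 read in the SMC1 and CTCF lists, so whether fold enrichment is relative to IgG or to the same library is uncertain.

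Samples were grouped by title. Regions were merged at an overlap of at least 1 bp, annotated from GENCODE 44 lifted to GRCh37 (hg19 coordinates on nuclear chromosomes) and described with Python 3.11.15, numpy 2.4.6, pandas 2.3.3 and scipy 1.17.1. Shares carry Wilson and their differences Newcombe 95% intervals, medians order-statistic intervals, all for counting error alone, with regions taken as independent. The motif was learned in 1000 windows of odd-numbered chromosomes. Merging, recovery and motif search were tested on simulated data. Lists cut by −log10 q, IgG overlap, chromosome, merging distance, overlap rule and length were tried.

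Named regions were those of highest −log10 q, on chromosomes 1 to 22 and X and without IgG overlap, in 8 classes by CTCF genotype, position and motif, the 5 highest and 2 lowest of all, the 5 genes holding most summits, and those in the listed genes. The members and lists were chosen with earlier results of these data known.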

Additional observations from a re-analysis of the deposited data

Results flagged for a closer look

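Of 12 comparisons of a deletion's effect on CTCF at members in its 2 genetic backgrounds (all members, near and away from start sites), 2 went opposite ways, and neither difference was tested, with 1 library per genotype. Among the 1524 members within 1 kb of a start site, 1173 had a CTCF peak in wild-type and 937 in ΔSCC4 cells (a ratio of 0.799), and 1272 had one in ΔWAPL and 1300 in ΔWAPL/ΔSCC4 cells (1.02), so that the second ratio was 1.28 times the first. The median CTCF fold enrichment ratio for SCC4 loss there was below 1 in both backgrounds, at 0.885 and 0.983. The full CTCF lists went the same opposite ways, with 43050 peaks in wild-type and 37625 in ΔSCC4 cells. They held 45798 peaks in ΔWAPL and 47608 in ΔWAPL/ΔSCC4 cells, so the opposite directions were not particular to these members. At the same members, the median CTCF fold enrichment ratio for WAPL loss was 0.991 in cells with SCC4, with an interval from 0.976 to 1.01 that spans 1, and 1.10 in cells without it, and the latter was 1.11 times the former. In the same order, the ratios were 0.920 and 1.01 at constant regions and 0.992 and 1.09 at SMC1-free CTCF regions. At shared WAPL-loss regions both were above 1, at 1.01 and 1.14. These opposite directions were thus not particular to the start-site members either.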

How the results depend on the processing

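Of 125 values under 13 alternative settings, 76 stayed within the interval of the main value, or within 1.5 times for the number of members. Removing IgG peaks, or chromosomes other than 1 to 22 and X, or asking for summits within 250 bp moved none. Under each setting that changes the lists, the merging or the overlap, members were chosen anew by the rule. Where every list was cut, regions whose peak in another genotype was cut could enter, so such members are not a subset of the 5046. For example, −log10 q of at least 10 in every list gave 5001 members, while only 1105 of the 5046 had a ΔWAPL SMC1 peak that strong. With −log10 q of at least 5 in every list, members were 65.4% of ΔWAPL-only regions, CTCF was in all 4 genotypes at 65.4% and in wild-type at 81.2%, the medians were 10.7 for wild-type CTCF, 1.00 for the CTCF ratio and 5.54 for SMC1, the motif share was 82.6% and the nearest wild-type SMC1 peak lay at 33.9 kb. At 10 or more the same values were 87.0%, 77.4%, 89.1%, 14.4, 0.967, 7.19, 89.0% and 71.3 kb, with 27.2% near starts; the CTCF ratio thus went from above to below 1. With that threshold for ΔWAPL SMC1 alone, 1105 members were left, 84.0% of ΔWAPL-only regions, with CTCF in all 4 at 68.1% and in wild-type at 83.5%, medians of 10.1, 1.04 and 6.76, a motif at 86.1%, 53.9% downstream, 31.6% near starts, 19.5 kb and 46.7% in the same orientation. Lists of equal length gave 1507 members, 92.1% of the ΔWAPL-only regions of those lists, with 83.8% and 91.4% for CTCF, medians of 13.4 for CTCF and 8.26 for SMC1, a motif at 89.5%, 35.0 kb and 50.7% in the same orientation. Merging within 500 bp gave 58.7% of ΔWAPL-only regions and 28.9% near starts, and an overlap of at least 50% gave 53.3% of ΔWAPL-only regions. Requiring a ΔWAPL CTCF peak gave 49.8% of ΔWAPL-only regions, CTCF in all 4 at 66.0% and in wild-type at 81.3%, a CTCF median of 9.74 and 27.6% near starts. At a motif cutoff of 1% the motif share was 55.1%. Starts of protein-coding transcripts alone gave 20.7% near starts, and a distance of 2 kb gave 38.1%. Bands set by ΔSCC4 CTCF, chosen after seeing the data, gave a CTCF ratio at members of 1.04, not 1.11, from 5 to 10, and of 0.957, not 0.970, from 10 to 15, the latter within its interval. The cause of these shifts was not tested, beyond the fewer or stronger peaks that each setting keeps. No paired analysis was possible because each group had 1 library.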

Other observations

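The share of ΔWAPL-only regions among SMC1 regions at CTCF varied between chromosomes. It was lowest on chromosome 13, at 96 of 779 regions or 12.3% (10.2 to 14.8), and highest on chromosome 16, at 214 of 997 or 21.5% (19 to 24.1), with 13.6% (11.8 to 15.6) on the X chromosome. Within ΔWAPL cells, SMC1 and CTCF fold enrichment had a Pearson r of 0.288 and a Spearman rho of 0.283 across the 4604 members with a ΔWAPL CTCF peak, and 0.490 and 0.463 across 10596 constant regions. These correlations are across regions of the same pair of libraries, which are not independent replicates, and they share local background and base composition. From the first to the ninth decile, ΔWAPL SMC1 fold enrichment ran from 3.90 to 6.94 at members and from 5.85 to 13.8 at constant regions. Members were chosen by their SMC1 peaks, and the part of this narrower range in their lower correlation was not tested.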
